A study of Mus musculus with 6 samples.

Results

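Endothelial and capillary genes were followed in the left ventricles of Glut1-TG mice and wild-type (WT) mice. They are 32 named genes of the endothelium, the cell layer that lines blood vessels, together with the growth factors that act on it, and all 32 were among the 18193 genes that the array measured through a probe set with a single gene symbol. A probe set is the group of oligonucleotides that reads 1 transcript, and each gene was read by the brightest of its probe sets on average. The samples were 3 WT and 3 Glut1-TG left ventricles from males of the FVB strain, 11 to 12 weeks of age, with 1 Affymetrix mouse expression array for each. Glut1-TG mice carry human Glut1, an insulin-independent glucose transporter, under the alpha-myosin heavy chain promoter, which is active in cardiomyocytes and not in endothelial cells, and the controls are labelled wild type. The arrays show how vessel genes behaved in ventricles whose muscle cells, and not whose vessels, were given the transporter. The whole ventricle was extracted, so that fewer endothelial cells and less RNA in each cell cannot be told apart. The labels number the replicates but do not say that they came from separate animals, and the p-values measure the spread between these samples.

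The heart is among the most densely capillarised organs, and most of its endothelial cells line capillaries that pass fatty acids, glucose and oxygen to the muscle. Vascular endothelial growth factor (VEGF), made largely by the muscle and stromal cells, acts on the receptors KDR and FLT1 on the endothelium, and its signal activates the endothelial nitric oxide synthase. The angiopoietins act through the receptor TEK and its partner TIE1, with ANGPT1 from supporting cells keeping vessels quiescent and ANGPT2 from the endothelium itself loosening them. Transcription factors of the SOX and ETS families hold the endothelial identity.

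None of these genes passed the test between Glut1-TG and WT ventricles. Of 32 members, 31 lay above the filter on low signals and were tested, and 0 were called by limma at an adjusted p under 0.05, where 0.857% of the 13178 genes tested were called. At an unadjusted limma p under 0.05 there were 5 of 31, namely Nos3 and Kdr with lower and Angpt1, Sox17 and Aqp1 with higher signals in Glut1-TG, beside 11.3% of all genes. An unpaired test of equal variances, which takes the spread of each gene alone, was run as an alternative. It is not known to be the one used for the array in the study. After Benjamini-Hochberg adjustment it gave 0 of 31. Unadjusted it gave 3 of 31, which were Nos3, Tie1 and Angpt1, beside 9.77% of all genes. The study's thresholds are a minimum fold and an unadjusted p, and they were joined here to that test. Nos3 was then lower and Angpt1 was higher, so that 2 of 31 passed beside 5.86% of all genes. The gene lists that the study itself obtained at its thresholds are longer. The reason for that difference was not tested.

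The members lay close to no difference as a list. Their median log2 fold change (Glut1-TG minus WT) was -0.04, the middle of the list ran from -0.16 to 0.11 between the quartiles, and the median of all genes tested was 0.02. The extremes were -0.49 for Nos3 and 0.53 for Angpt1, while all genes ran from -2.74 to 3.76. The median standard error (SE) of the members was 0.13 on the log2 scale against 0.19 over all genes. The fit takes the variance of a gene partly from its mean intensity. Neither the SE nor the intervals of the members were set against those of genes with like signals. The 95% confidence interval, unadjusted for the number of genes, lay wholly within a 1.5-fold difference in either direction for 21 of 31 members (67.7%), as it did for 44.5% of all genes tested. The other 10 were Ecscr, Vwf, Kdr, Sox7, Sox17, Nos3, Aqp1, Aplnr, Angpt1 and Apln, for which a difference of 1.5-fold lay inside the interval. In 3 members (Emcn, Kdr and Nos3) all Glut1-TG arrays were lower than all WT arrays and in 3 (Tie1, Sox17 and Angpt1) all were higher, beside 17.4% of all genes tested with groups that did not overlap.

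**Figure D1:**
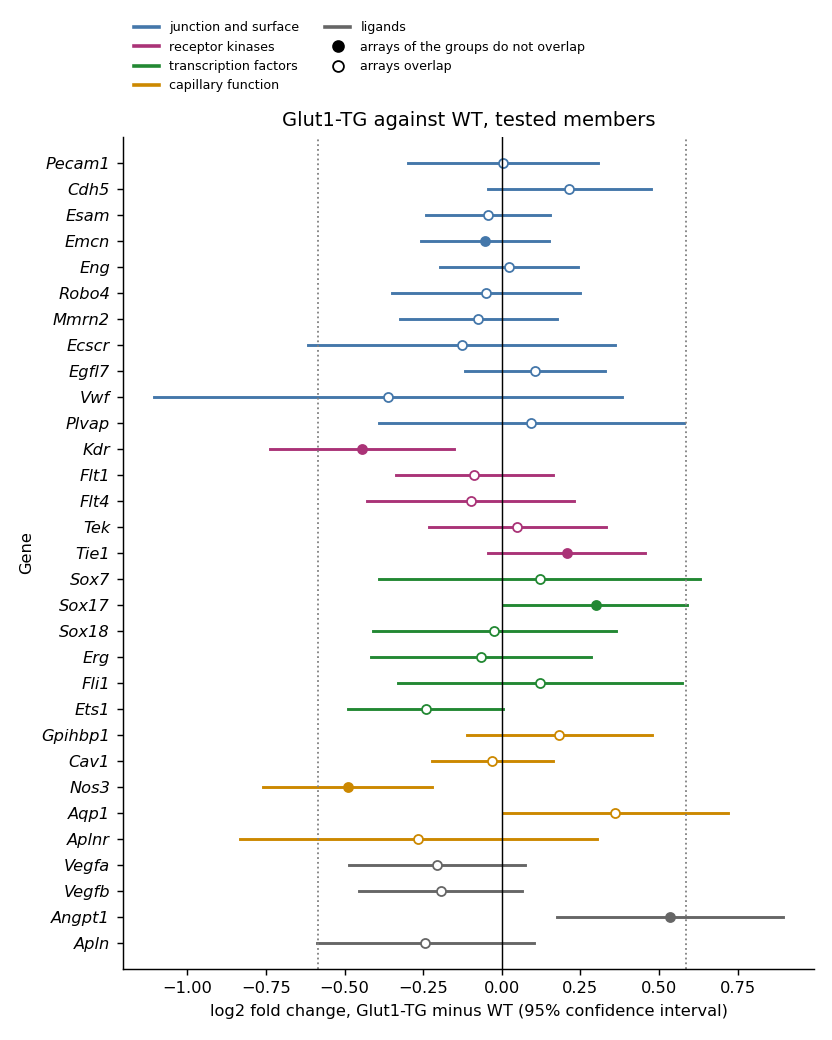
Horizontal axis, log2 fold change of Glut1-TG over WT for the 31 tested members, coloured by role, with bars for the 95% confidence interval from limma; filled points are genes whose groups do not overlap, and dotted lines mark a 1.5-fold difference. The points run from -0.49 for Nos3 to 0.53 for Angpt1, and 21 of the 31 bars stay between the dotted lines.

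The genes of the surface and junction proteins that define endothelial cells were all measured, and each of the 11 lay above the filter in the mean over arrays. Of these 11 genes, 0 were called and the median log2 fold change was -0.04. Pecam1, the platelet endothelial cell adhesion molecule that is the usual measure of endothelial content, had signals of 1828, 1556 and 1831 on the WT arrays and 2044, 1459.5 and 1758 on the Glut1-TG arrays. The arrays of both groups were mixed in order, and the log2 fold change was 0.00 (SE 0.14, 95% confidence interval -0.30 to 0.31, limma adjusted p = 0.996). Cdh5, the vascular endothelial cadherin of the adherens junctions, had 1997, 1936 and 1588 on the WT arrays and 1936, 2203 and 2254 on the Glut1-TG arrays. Its highest 2 arrays were Glut1-TG arrays and its lowest was a WT array, with a log2 fold change of 0.22 (95% confidence interval -0.04 to 0.48, limma adjusted p = 0.53), and its second probe set had 0.14. Without WT replicate 3 it was 0.11. Esam, an endothelial cell adhesion molecule of the tight junctions, differed by -0.04 (95% confidence interval -0.24 to 0.15, limma adjusted p = 0.89). Eng, a co-receptor for the TGF-beta family on endothelial cells, differed by 0.02 (95% confidence interval -0.20 to 0.24, limma adjusted p = 0.95).

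Emcn, the sialomucin endomucin of capillaries and veins, had the steadiest signals, with 1641, 1644 and 1581 on the WT arrays and 1550.3, 1565 and 1579 on the Glut1-TG arrays. Its groups did not overlap, although they were apart by only -0.05 on the log2 scale (95% confidence interval -0.26 to 0.15, adjusted p = 0.87 from limma). Robo4, a guidance receptor that stabilises vessels, had a log2 fold change of -0.05 (95% confidence interval -0.35 to 0.25, limma adjusted p = 0.92), and Mmrn2, an extracellular matrix protein around endothelial cells, had -0.07 (95% confidence interval -0.32 to 0.18, limma adjusted p = 0.85). Egfl7, a secreted endothelial protein, had 0.11 in the probe set used and -0.09, -0.26 and -0.14 in its further 3 probe sets, so that its sign depended on the probe set. Ecscr, a regulator of endothelial cell migration, had -0.13, and Plvap, the protein of the diaphragms of fenestrated vessels and of the endocardium, had 0.09 (adjusted p = 0.87 and 0.91 from limma).
Vwf, the von Willebrand factor that endothelial cells store for haemostasis and that is richest in larger vessels and veins, had the largest standard error among the tested members (0.33 on the log2 scale). Its signals were 1094, 889.7 and 714 on the WT arrays and 402, 1188 and 685 on the Glut1-TG arrays. The lowest and the highest value both lay among the Glut1-TG arrays, and the log2 fold change of -0.36 had a wide interval (-1.11 to 0.38, adjusted p = 0.74 from limma). Without Glut1-TG replicate 1 the value was 0.03, and without Glut1-TG replicate 2 it was -0.75.

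Among the receptor tyrosine kinases of the endothelium the signals of Kdr and Tie1 separated the groups, in opposite directions, and neither passed the test. Kdr, the main signalling receptor for VEGF, had 4075, 2854 and 3088 on the WT arrays and 2518, 2487 and 2272 on the Glut1-TG arrays. All 3 Glut1-TG arrays were below all 3 WT arrays, with WT replicate 1 well above the others. The means were 3339 ± 648 (SD, n = 3) in WT and 2426 ± 134 (SD, n = 3) in Glut1-TG, and the log2 fold change was -0.44 (SE 0.13, 95% confidence interval -0.74 to -0.15, limma adjusted p = 0.23). Without WT replicate 1 it was -0.29, with an adjusted p of 0.41. Flt1, the VEGF receptor that binds the ligand tightly and signals weakly, had 1834, 2053 and 2352 on the WT arrays and 1987, 1825 and 2039 on the Glut1-TG arrays and a log2 fold change of -0.09 (95% confidence interval -0.34 to 0.16, limma adjusted p = 0.82). Its further 3 probe sets had -0.05, 0.29 and -0.09. Flt4, the receptor for VEGF-C on lymphatic and sprouting endothelium, had -0.10 (95% confidence interval -0.43 to 0.23, limma adjusted p = 0.85).

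Tie1, the orphan receptor that partners TEK, had 899.8, 899 and 989.6 on the WT arrays and 1096, 1094 and 1026 on the Glut1-TG arrays. Every Glut1-TG array was above every WT array by a small step, for a log2 fold change of 0.21 (SE 0.11, 95% confidence interval -0.04 to 0.46, limma adjusted p = 0.53). Tek, the angiopoietin receptor itself, had 1479.5, 1127 and 1404 on the WT arrays and 1289.5, 1444 and 1392 on the Glut1-TG arrays, and both groups covered much the same range at a log2 fold change of 0.05 (95% confidence interval -0.23 to 0.33, limma adjusted p = 0.92).
Kdr and Tie1 are shown with the promoter windows that the RefSeq annotation of GRCm38.p6 gives them, because they are the receptor genes whose groups did not overlap. Windows reach from 250 bases before to 50 bases after a transcription start and were found for 15 of the 32 members, 21 windows in all. Capitals mark matches, on either strand, to AGGAAG or CCGGAA, hexamers that hold the GGAA core bound by ETS factors. Both windows are written 5′ to 3′ on the minus strand, on which the genes lie.
Kdr, chr5:75978406-75978705: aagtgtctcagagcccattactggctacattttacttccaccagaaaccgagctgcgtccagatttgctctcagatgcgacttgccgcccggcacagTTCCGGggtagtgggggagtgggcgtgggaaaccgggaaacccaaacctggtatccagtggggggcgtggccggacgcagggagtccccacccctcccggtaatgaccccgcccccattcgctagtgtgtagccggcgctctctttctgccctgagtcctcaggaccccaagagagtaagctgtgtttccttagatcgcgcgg
Tie1, chr4:118489800-118490099: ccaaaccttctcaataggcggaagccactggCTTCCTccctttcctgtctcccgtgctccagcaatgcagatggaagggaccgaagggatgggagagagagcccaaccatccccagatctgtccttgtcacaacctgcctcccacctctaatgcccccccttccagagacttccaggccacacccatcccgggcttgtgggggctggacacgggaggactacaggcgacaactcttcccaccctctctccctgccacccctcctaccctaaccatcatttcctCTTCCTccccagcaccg
The Kdr gene is annotated from 75932827 to 75979072, so its whole window lies inside the gene and not upstream of it. The Tie1 window spans the annotated start of its gene at 118489849. The Kdr window held CCGGAA 1 time, and the Tie1 window held AGGAAG 2 times, 1 of them after the start. Of the 21 member windows 12 held at least 1 of these hexamers (57.1%), as did 45.2% of 32851 windows of all genes, so the letters are common in promoters of all kinds. Taken apart, AGGAAG was in 11 of the 21 (52.4%) beside 35.4% of all windows. CCGGAA was in 1 of the 21, that of Kdr (4.8%), beside 14.9% of all windows. A match is a description of the sequence and was not tied to the array values.

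The 6 transcription factors had a median log2 fold change of 0.05, and 0 were called. Sox17, a SOX factor that favours arterial identity, was the one whose groups did not overlap, with 929.7, 1014 and 871 on the WT arrays and 1071, 1330.3 and 1072 on the Glut1-TG arrays. Glut1-TG replicate 2 was the highest, and the log2 fold change was 0.30 (SE 0.13, 95% confidence interval 0.01 to 0.59, limma adjusted p = 0.43), or 0.19 without that array. Its second probe set, also without overlap, had 0.27. The related Sox7 and Sox18 showed no such separation. Sox7 had 1443, 859 and 705 on the WT arrays and 1013, 1138 and 974 on the Glut1-TG arrays, and Sox18 had 4186, 3409 and 2443 on the WT arrays and 3619.5, 2981 and 3075 on the Glut1-TG arrays. In both genes the highest and the lowest arrays were WT arrays, and the log2 fold changes were 0.12 and -0.02 (adjusted p = 0.88 and 0.98 from limma). Averaged with its second probe set, whose signals lay under the filter, Sox7 had 1.02 (adjusted p = 0.46), and without WT replicate 1 it had 0.42.
Ets1, an ETS factor of endothelial and immune cells, had 3958, 3365 and 3061 on the WT arrays and 2726, 3141 and 2884 on the Glut1-TG arrays. WT replicate 3 lay below Glut1-TG replicate 2, so the groups overlapped, and the log2 fold change was -0.24 (95% confidence interval -0.49 to 0.01, limma adjusted p = 0.46), or -0.14 without WT replicate 1. Its further 3 probe sets were also negative, at -0.51, -0.21 and -0.05. Erg, an ETS factor largely restricted to endothelium, had -0.07 (95% confidence interval -0.41 to 0.28, limma adjusted p = 0.91). Fli1, which also serves blood cells, had 0.12 (95% confidence interval -0.33 to 0.57, limma adjusted p = 0.87), with -0.15 in its second probe set.

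The genes that serve capillary function held the lowest log2 fold change of the 31 tested members. Nos3, the endothelial nitric oxide synthase that relaxes vessels, had 1569.8, 1551 and 1495 on the WT arrays and 1092, 961 and 1251 on the Glut1-TG arrays. The WT arrays lay within a narrow range, and all 3 Glut1-TG arrays lay below it. The means were 1539 ± 38.7 (SD, n = 3) in WT and 1101 ± 146 (SD, n = 3) in Glut1-TG, and the log2 fold change was -0.49 (SE 0.12, 95% confidence interval -0.76 to -0.22, limma adjusted p = 0.13), or 0.712 times the WT level (95% confidence interval 0.591 to 0.858). It was the member with the smallest adjusted p, and 1 probe set reads it. The gene lies at chromosome 5, 24364816 to 24384474 of GRCm38.p6. Its log2 fold change ran from -0.59 to -0.29 over the 17 alternative settings, with an adjusted p from 0.11 to 0.38. The filter, the replicate block, the test and the mean of its 1 probe set cannot change that fold, which stayed at -0.49 there.
Aqp1, the water channel of the microvascular endothelium, had 5332, 7737 and 8248 on the WT arrays and 8558, 8108 and 10395 on the Glut1-TG arrays. WT replicate 1 was by far the lowest and Glut1-TG replicate 3 the highest, and Glut1-TG replicate 2 lay below WT replicate 3. The log2 fold change was 0.36 (SE 0.16, 95% confidence interval 0.00 to 0.72, limma adjusted p = 0.44), and without WT replicate 1 it was 0.17 (adjusted p = 0.67). Gpihbp1, which carries lipoprotein lipase to the luminal face of capillaries, had 5235, 6505 and 6414 on the WT arrays and 5630.5, 7460.5 and 7601 on the Glut1-TG arrays. As for Aqp1, WT replicate 1 was the lowest and Glut1-TG replicate 3 the highest, and the log2 fold change was 0.18 (95% confidence interval -0.11 to 0.48, limma adjusted p = 0.64). It was 0.08 without WT replicate 1, 0.11 without Glut1-TG replicate 3 and 0.32 without Glut1-TG replicate 1.
Cav1, the coat protein of caveolae, was nearly flat, with 9860.0, 9311 and 9367 on the WT arrays and 8441, 9504 and 10082 on the Glut1-TG arrays and a log2 fold change of -0.03 (95% confidence interval -0.22 to 0.16, limma adjusted p = 0.93). Aplnr, the apelin receptor of angiogenic and venous endothelium, had 2769.7, 1445 and 1468 on the WT arrays and 1622, 1829 and 1140.2 on the Glut1-TG arrays. WT replicate 1 stood above the other 5 arrays, and the log2 fold change of -0.27 (95% confidence interval -0.83 to 0.30, limma adjusted p = 0.75) became 0.04 without it.

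Among the ligands Angpt1 had the highest log2 fold change of the members. Angpt1, the TEK agonist made by perivascular and muscle cells, had 746, 669.5 and 726 on the WT arrays and 869, 1299 and 976 on the Glut1-TG arrays. All 3 Glut1-TG arrays lay above the WT arrays and were also the more spread, with replicate 2 the highest. The means were 714 ± 39.8 (SD, n = 3) in WT and 1048 ± 224 (SD, n = 3) in Glut1-TG, and the log2 fold change was 0.53 (SE 0.16, 95% confidence interval 0.17 to 0.89, limma adjusted p = 0.24), or 1.45 times the WT level (95% confidence interval 1.13 to 1.86). The gene lies at chromosome 15, 42424667 to 42676977 of GRCm38.p6. Without Glut1-TG replicate 2 the log2 fold change was 0.37. Averaged with its second probe set, which lies under the filter at a mean signal of 64.9, it was 0.17 (adjusted p = 0.95).
Angpt2, the context-dependent TEK antagonist, was the member that did not pass the filter and was not tested with the others. Its signals were 176, 146 and 148 on the WT arrays and 65.5, 111 and 43.7 on the Glut1-TG arrays, every Glut1-TG array below every WT array, against a filter at a signal of 115. In a fit of all 18193 genes without a filter its log2 fold change was -1.19 (SE 0.50, limma adjusted p = 0.49). The Glut1-TG signals all lay under the filter and no detection calls were used, so the size of the fold is not determined.

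The VEGF ligands were slightly lower on average in Glut1-TG ventricles and did not pass. Vegfa, the chief angiogenic ligand and a target of hypoxia signalling, had 4049, 3000.1 and 3391 on the WT arrays and 3081, 2660.0 and 3276 on the Glut1-TG arrays. Its groups overlapped and the log2 fold change was -0.21 (95% confidence interval -0.49 to 0.07, limma adjusted p = 0.58), with -0.03 in the second probe set. Vegfb, a ligand of FLT1 that is abundant in cardiac muscle, had 11402, 8770.2 and 9268 on the WT arrays and 7996, 9599 and 8058 on the Glut1-TG arrays. It too overlapped, at -0.19 (95% confidence interval -0.45 to 0.06, limma adjusted p = 0.57). Apln, the peptide ligand of APLNR, had 1441, 1145 and 1098 on the WT arrays and 1043, 1202 and 871 on the Glut1-TG arrays and a log2 fold change of -0.24 (95% confidence interval -0.59 to 0.10, limma adjusted p = 0.59). WT replicate 1 held the highest value of all arrays in each of these 3 genes, and without it the log2 fold changes were -0.09 for Vegfa, -0.08 for Vegfb and -0.12 for Apln.

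**Figure D2:**
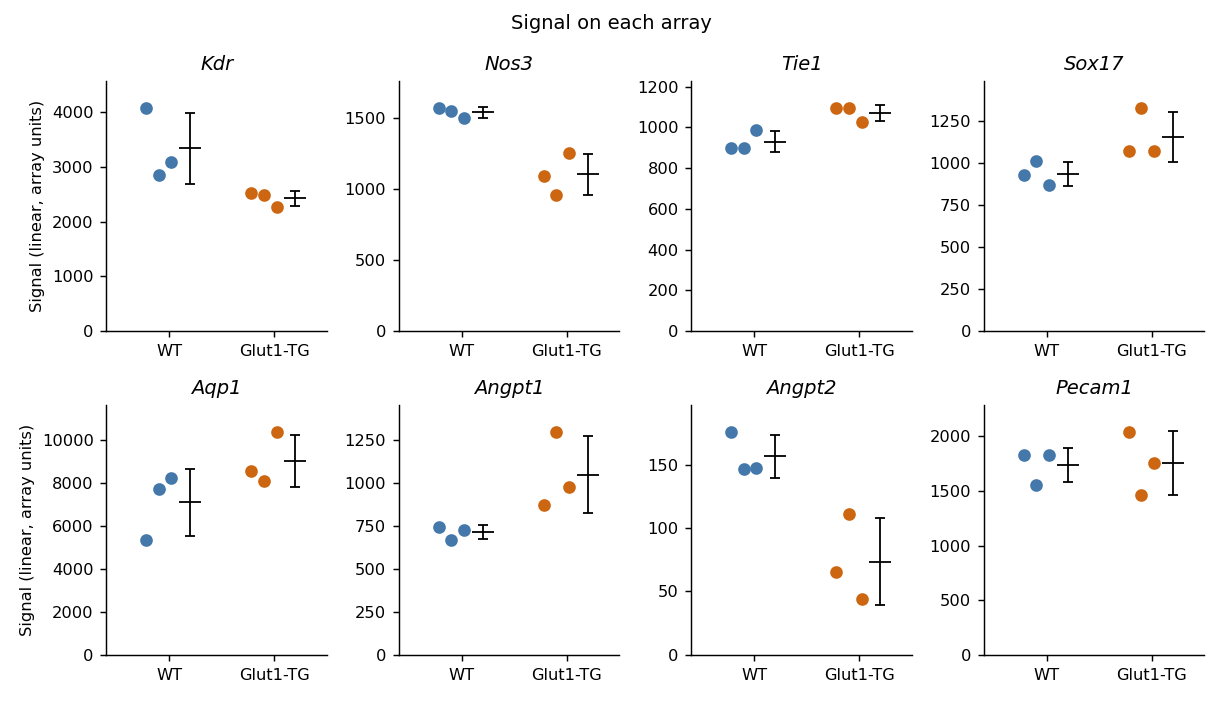
Signal on a linear scale (vertical axis, array units, from 0) of 8 members on each WT (blue) and Glut1-TG (orange) array; the black mark is the mean and its bar the SD of 3 arrays. Kdr, Nos3 and Angpt2 are lower and Tie1, Sox17 and Angpt1 higher on every Glut1-TG array, Aqp1 overlaps, and Pecam1 has the same mean in both groups within its spread; none passed limma, and Angpt2 was under the filter.

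The groups overlapped in 25 of the 31 tested members, and the order of the arrays within a group was not even. WT replicate 1 was the highest of the WT arrays in 16 of 31 tested members (51.6%), beside 40.4% of all genes tested, and the lowest in 7. The 16 include Kdr, Sox7, Sox18, Ets1, Aplnr, Vegfa, Vegfb and Apln, while Aqp1, Gpihbp1, Fli1 and Flt1 are among the 7. The median deviation of the members from their WT mean was nevertheless small on every array, from -0.03 to 0.05 on the log2 scale in WT and from -0.06 to -0.0022 in Glut1-TG. Glut1-TG replicate 1, whose median signal over all probe sets was 213 beside 171 to 188 on the other 5 arrays, held the lowest value of its group in 15 of 31 members (48.4%, beside 39.0% of all genes). Leaving out each of the 6 arrays in turn left the count of called members at 0 by limma.

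**Figure D3:**
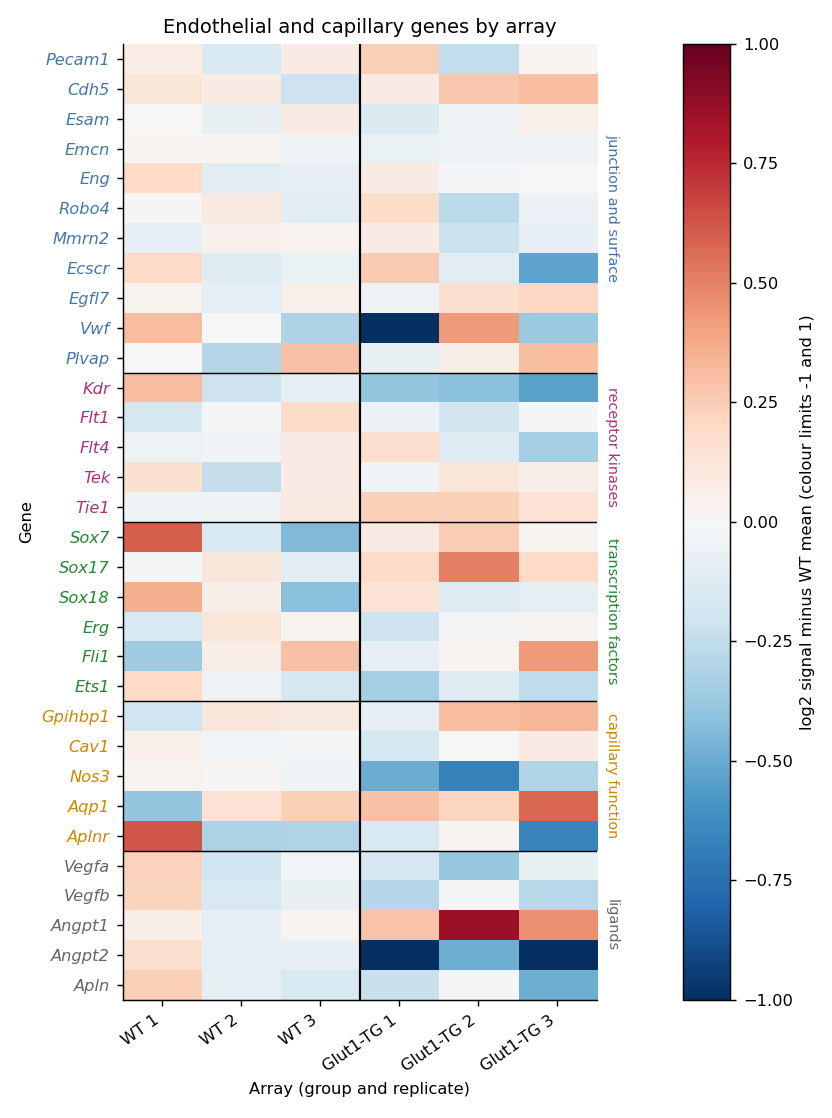
Log2 signal of each of the 32 members (rows, grouped by role) minus its mean over the WT arrays, on each array (columns); red is above and blue below the WT mean, and the colour scale ends at -1 and 1. The columns show no shared shift of the list between WT and Glut1-TG, whose median deviations lie between -0.06 and 0.05, whereas Kdr, Nos3 and Angpt2 are blue and Angpt1 is red on all 3 Glut1-TG arrays.

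The other genes of the vascular pathways gave the same count. Of 83 listed genes, 80 had a probe set with a single symbol, 74 passed the filter and 0 were called by limma, with a median log2 fold change of -0.02. At an unadjusted limma p under 0.05, 4 had higher and 9 had lower signals in Glut1-TG, 13 of 74 beside 11.3% of all genes. Genes whose groups did not overlap were 6 higher and 7 lower, 13 of 74 beside 17.4% of all genes. On the VEGF side, Nrp1, the neuropilin co-receptor of KDR, had 4266, 4105 and 4051 on the WT arrays and 3195, 3472 and 3466 on the Glut1-TG arrays. The Glut1-TG arrays lay below the WT arrays, with a log2 fold change of -0.29 (95% confidence interval -0.47 to -0.11, limma adjusted p = 0.19). Plxnd1, the semaphorin receptor of endothelial cells, had 2038, 1677 and 1419 on the WT arrays and 1345, 1165 and 1147 on the Glut1-TG arrays, again without overlap, and -0.48 (95% confidence interval -0.80 to -0.16, limma adjusted p = 0.24). Of the 14 tested genes of VEGF and hypoxia signalling 11 had negative values, beside 6199 of 13178 over all genes, with a median of -0.15. The 3 with positive values were Angptl4 at 0.95, Adm, the vasodilator peptide adrenomedullin, at 0.33, and Ramp2, a subunit of its receptor, at 0.22 (adjusted p = 0.32, 0.64 and 0.55 from limma). Hif1a and Epas1, which encode the hypoxia-inducible factors, had -0.20 and -0.15 (adjusted p = 0.59 and 0.67 from limma).

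Ednrb, the endothelin receptor that couples to nitric oxide release on endothelium, had the smallest unadjusted p of the pathway genes, with 782, 869 and 976 on the WT arrays and 1406, 1166 and 1319.9 on the Glut1-TG arrays. Its groups did not overlap, and the log2 fold change was 0.57 (SE 0.13, 95% confidence interval 0.28 to 0.86, limma adjusted p = 0.11). Car4 and Rgcc, genes enriched in cardiac capillary endothelium, were higher on every Glut1-TG array. Car4, a carbonic anhydrase on the luminal face of capillaries, had 1031, 1394 and 1402 on the WT arrays and 1630.1, 1807 and 2179 on the Glut1-TG arrays, a log2 fold change of 0.56 (95% confidence interval 0.22 to 0.90, limma adjusted p = 0.19). Rgcc, a regulator of the cell cycle, had 904, 1364 and 1619 on the WT arrays and 1654, 2543 and 1990.4 on the Glut1-TG arrays, and 0.69 (95% confidence interval 0.21 to 1.17, limma adjusted p = 0.27). In both genes, as in Aqp1 and Gpihbp1, WT replicate 1 was the lowest of the 6 arrays. Lpl, the lipoprotein lipase that GPIHBP1 carries and that muscle cells make, had 49640.1, 39278 and 43824 on the WT arrays and 36294, 35837 and 34278 on the Glut1-TG arrays. All Glut1-TG arrays lay below the WT arrays, with -0.31 (95% confidence interval -0.53 to -0.09, limma adjusted p = 0.27), and as the mean of its probe sets it was called.
The remaining pathway genes without overlap and with an unadjusted p under 0.05 were lower in Glut1-TG. Mcam, an adhesion molecule of endothelium and pericytes, had -0.49, Ets2, an ETS factor, had -0.39, Arhgef15, a guanine nucleotide exchange factor of endothelium, had -0.32, and Cd93, a lectin-like endothelial receptor, had -0.27 on the log2 scale (adjusted p = 0.29, 0.24, 0.42 and 0.41 from limma). Of the Notch, ephrin and arterial genes 0 of 13 were without overlap, beside 17.4% of all genes tested. Cd36 and Fabp4, which take up and carry fatty acids in endothelium and muscle, had -0.0012 and 0.05. Angptl4, an inhibitor of lipoprotein lipase that is named here after its values were seen, had the highest log2 fold change of the pathway genes, 0.95, with 639.7, 1776 and 1291 on the WT arrays and 2641, 1664 and 2423 on the Glut1-TG arrays. Its groups overlapped, with WT replicate 1 far below the rest (adjusted p = 0.32 from limma).

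**Figure D4:**
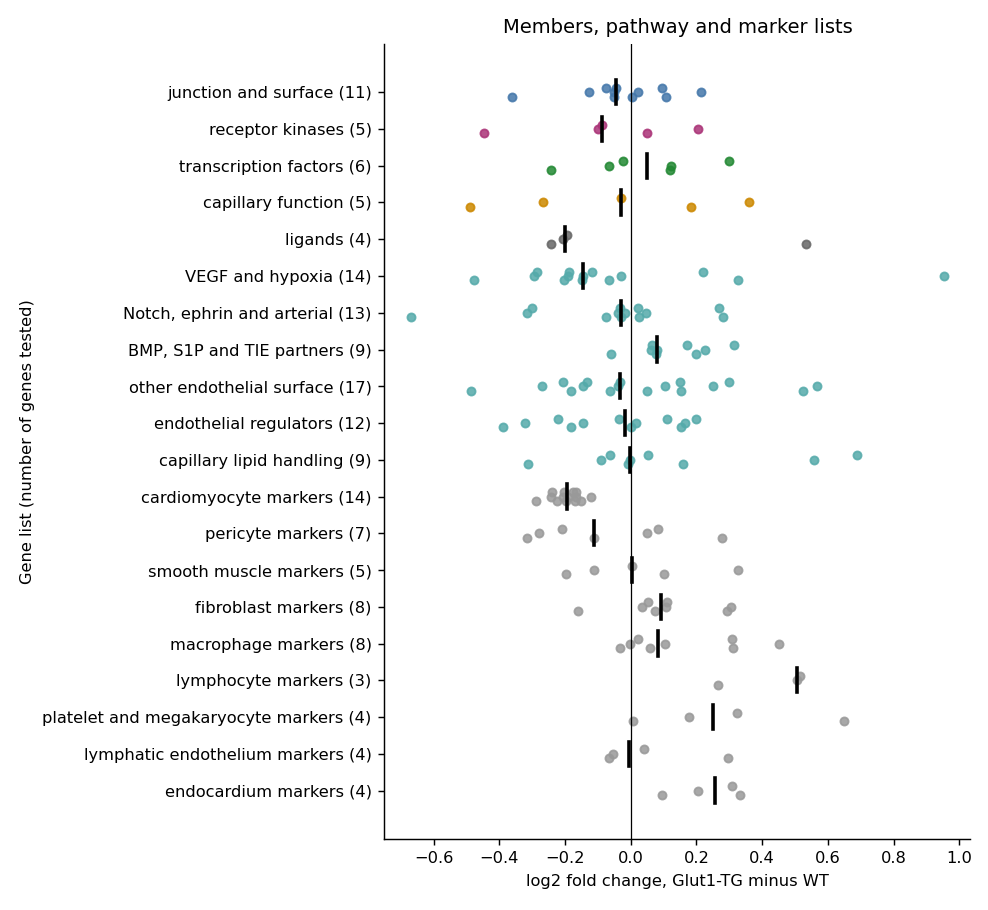
Horizontal axis, log2 fold change of Glut1-TG over WT for every tested gene of the members by role, the pathway lists (teal) and the marker lists of other cell types (grey), with a black line at the median and the number of genes in brackets. The members' medians run from -0.20 for the ligands to 0.05 for the transcription factors, and the cardiomyocyte markers sit together at a median of -0.19.

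Of the markers of other cells in the ventricle only 2 atrial genes were called. The 14 cardiomyocyte markers all had negative log2 fold changes, with a median of -0.19 and 0 called. The groups overlapped in 10 of them, and in 4 every Glut1-TG array was lower, beside 17.4% of all genes without overlap. At an unadjusted limma p under 0.05, 4 of the 14 were lower, beside 11.3% of all genes in either direction. Summed over all 14, their signal ran from 562026 to 688747 on the WT arrays and from 527305 to 559195 on the Glut1-TG arrays. On the WT arrays their median deviation from the WT mean was 0.13, -0.15 and 0.02 on the log2 scale. On the Glut1-TG arrays it was -0.16, -0.15 and -0.25, so WT replicate 2 lay near the Glut1-TG arrays. Vegfa and Vegfb, which cardiomyocytes express, had -0.21 and -0.19, with -0.03 in the second probe set of Vegfa. Angpt1, given above as made by perivascular and muscle cells, had 0.53. A link of these genes with the cardiomyocyte markers was not tested. After each array was centred on these markers, which was tried once the values were known, the median of all genes tested moved from 0.02 to 0.21 and that of the members from -0.04 to 0.15. With that centring Kdr had -0.25, Nos3 -0.29 and Angpt1 0.73 on the log2 scale (adjusted p = 0.32, 0.38 and 0.10 from limma).
Pericytes, which wrap capillaries and make ANGPT1, had 7 of 7 markers tested, a median of -0.11 and 0 called. Their summed signal ran from 29815 to 31991 in WT and from 26003 to 28931 in Glut1-TG. Pdgfrb and Abcc9 were lower on every Glut1-TG array, with -0.28 and -0.31 (adjusted p = 0.38 and 0.19 from limma), and Rgs5 and Kcnj8 had -0.11 and -0.21, while Cspg4, Vtn and Notch3 had 0.28, 0.08 and 0.05. The sum is made mostly of Rgs5, at 12067 to 15342 over all arrays, and Abcc9, at 7541.0 to 10346. The 4 tested markers of platelets, which also carry Pecam1 and Vwf, had a median of 0.25, with summed signals of 3158 to 3471 in WT and of 3479.5 to 3564.5 in Glut1-TG, and Gp9 was under the filter. The 4 tested markers of lymphatic endothelium, which shares Flt4, had a median of -0.01 (1993 to 2969 in WT and 2396 to 2838 in Glut1-TG). The endocardium, which shares Plvap, had a median of 0.26 over 4 genes (1978 to 2183 in WT and 2336 to 2722 in Glut1-TG). Macrophage and fibroblast markers, 8 tested of each, had medians of 0.08 and 0.09, with summed signals of 10002 to 10490.1 in WT and 9416 to 12667 in Glut1-TG for macrophages and of 28049.6 to 31011 in WT and 25758 to 35319 in Glut1-TG for fibroblasts. The 5 tested smooth muscle markers had a median of 0.00, and the 3 tested lymphocyte markers 0.51, while Cd3e, Cd3d and Nkg7 were under the filter. The 5 tested markers of atrial cardiomyocytes, 3 with positive and 2 with negative values, had a median of 0.32. Of these Myl7 and Myl4, the atrial myosin light chains, were called higher in Glut1-TG, with log2 fold changes of 3.76 and 1.75 (adjusted p = 0.041 and 0.0085 from limma), the first from WT signals that all lay under 115. Nppa and Bmp10, which encode peptides of atrial muscle, had -0.07 and -0.61 (adjusted p = 0.93 and 0.68 from limma), and Sln, the calcium pump regulator sarcolipin, was under the filter with 117, 116 and 114 on the WT arrays and 65.3, 56.9 and 39.4 on the Glut1-TG arrays. No marker listed here had a signal of 0. The part of these cells in the members' values was not tested.

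The mouse probe sets for Slc2a1, which were not designed for the human transgene, do not settle its level: they had log2 fold changes of -1.19, 0.69 and -2.30. Over all genes tested 34 were higher and 79 lower in Glut1-TG by limma, a split that was 48 and 66 after quantile normalization and 69 and 25 after centring on the cardiomyocyte markers, and the deposited signals had the same trimmed mean of 500 on each array.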

How the data were processed

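Total RNA from 3 WT and 3 Glut1-TG left ventricles was labelled as cRNA and hybridised to Affymetrix mouse arrays. The authors deposited linear intensity values for each probe set, made with GCOS (version not given in the sources used here) and scaled to a common trimmed mean; no detection calls or batches were used here. Values under 1 (48 in all) were set to 1 and log2 was taken. Of 45037 probe sets that were not controls, 34945 had 1 gene symbol in the GEO platform annotation, 932 had several and 9160 had none, and those with several or none were not used. Where a gene had several probe sets, the brightest on average was taken. The lowest 40% of probe sets were dropped (signal under 115), which left 13178 genes.

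Groups were compared by limma 3.58.1 (eBayes, with the prior variance following mean intensity) in R 4.3.3 over all these genes, with Benjamini-Hochberg adjustment at 0.05 and no covariate. The script was tested on simulated data. The alternatives were an unpaired t-test of equal variances with the study's minimum fold change, other filters, an offset, quantile normalization and the mean of probe sets. A replicate block and leaving out each array were also tried. The study names no test for its array, so its thresholds were joined here to a test that it does not name for them. The members, pathway genes and cell type markers were chosen with earlier results of these data known. All 32 members are named, with pathway genes of lowest unadjusted p (up to 10 whose groups did not overlap) and markers that were called. No 2 arrays held the same values. Promoter windows came from the RefSeq table of GRCm38.p6, searched on both strands; the array probes were not placed on the genome.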

Additional observations from a re-analysis of the deposited data

How the results depend on the processing

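The count of members called was 0 in 15 of the 17 alternatives. Among them were no filter, a stricter filter, an offset of 50, quantile normalization and the mean of probe sets. Others were no intensity trend, each array left out and the t-test after Benjamini-Hochberg adjustment. The count was 2 at the thresholds of the study and 5 at an unadjusted limma p under 0.05. The pathway genes called were 1 with the mean of probe sets, 5 at the thresholds of the study and 13 unadjusted. The median of the members was 0.011 after quantile normalization and 0.15 after centring on cardiomyocyte markers, an alternative added after the data were seen. Over all genes 113 were called, and 49 with the mean of probe sets, 69 with the replicate block and 4 with no intensity trend. The t-test after adjustment called 1, the thresholds of the study 772, the unadjusted limma p 1486, and the fits with an array left out 44 to 86. Where so few genes were called over all, a count of 0 members says little. Same-numbered arrays had deviations from the group means with correlations of 0.08, -0.03 and 0.05 across genes. Differently numbered arrays had correlations from -0.11 to 0.06. With 3 arrays a group these values cannot settle whether the numbers pair the arrays, and the replicate block left the members called at 0.

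The sign was the same in all alternatives for 11 members (Angpt1, Apln, Aqp1, Cdh5, Ets1, Gpihbp1, Kdr, Nos3, Sox17, Tie1 and Vegfa) and turned in at least 1 for the other 20. A change of the filter, the replicate block, the intensity trend or the test leaves the fold of a tested member as it was. Those alternatives could therefore not turn a sign. Log2 fold changes that turned were Cav1 0.063, Esam 0.011 and Sox18 0.029 after quantile normalization, Egfl7 -0.095, Eng -0.014, Erg 0.086, Fli1 -0.014 and Flt1 0.015 with the mean of probe sets, and Cav1 0.17, Ecscr 0.069, Emcn 0.14, Erg 0.13, Esam 0.15, Flt1 0.11, Flt4 0.097, Mmrn2 0.12, Robo4 0.15, Sox18 0.17 and Vegfb 0.0014 after that centring, which raised the median of all genes to 0.21. With an array left out the ranges of those that turned were Aplnr -0.43 to 0.043, Cav1 -0.086 to 0.042, Ecscr -0.32 to 0.073, Eng -0.033 to 0.12, Erg -0.14 to 0.0034, Esam -0.092 to 0.0015, Fli1 -0.055 to 0.27, Flt1 -0.17 to 0.0059, Flt4 -0.24 to 0.023, Pecam1 -0.11 to 0.13, Plvap -0.050 to 0.24, Robo4 -0.17 to 0.060, Sox18 -0.23 to 0.16, Sox7 -0.099 to 0.42, Tek -0.069 to 0.13, Vwf -0.75 to 0.027. The cause of these shifts was not tested. With 3 arrays a group the number of arrays limits the precision, and an exact permutation test of 1 gene could not give a p below 0.1. The fold of Angpt2, under the filter, is not determined.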
